A study of Rattus norvegicus with 24 samples.

Results

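The comparison described here set the hearts of rats given acupuncture at the Jiaji points before a coronary ligation against the hearts of ligated rats given none. Its members were the 4 arrays labelled Jiaji and the 4 labelled IRI, 8 of the 24 arrays of the series, and all 12894 genes tested on them. Each array carried RNA from rat myocardium, and each of the 6 groups held 2 males and 2 females. Rats of the Jiaji group had 7 days of acupuncture, after which the left anterior descending coronary artery was ligated. Rats of the IRI group, short for ischemia-reperfusion injury, had the same ligation without acupuncture. The sham group had neither, and the Neiguan, Yanglingquan and Quchi groups were needled at those points before the same ligation. The strain, age, length of ischemia and of reperfusion, time of sampling and region of the heart are stated in none of the sources used here, and no group had sham needling among those analysed. The labels do not say whether any animals were pooled, so p-values measure the spread between these arrays.

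Jiaji points lie along both sides of the spine, Neiguan on the forearm, Quchi at the elbow and Yanglingquan below the knee. The heart is supplied by sympathetic fibres that leave the thoracic spinal cord and release noradrenaline, which acts on cardiac beta-adrenergic receptors. Ischemia followed by the return of blood flow is known to release noradrenaline, to set off oxidative stress and to draw leukocytes into the muscle. Brief or remote stimulation before the injury, called preconditioning, is known to lessen it in animal models, and the series asks what acupuncture does in that setting.

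Levels below are log2 signals relative to the 75th percentile of each array's probes, so a level of 0 is a bright probe and a level of -5 a faint one. Levels are given in the order of replicates 1 to 4, of which 1 and 4 were males and 2 and 3 females in both the Jiaji and the IRI group. A gene was called when its adjusted p was under 0.05. In all groups 73.5% to 84.8% of probes were well above background on average, with 82.8% ± 1.57 (SD, n = 4) in the Jiaji group and 84.8% ± 3.14 (SD, n = 4) in the IRI group. The heart identity of the tissue was clear in its markers, since all 16 cardiomyocyte markers tested were well above background on all 8 arrays. The 4 arrays of a group shared 1 scan of their own, except that Quchi replicate 1 was scanned apart from the other Quchi arrays. IRI and sham were scanned on the same day and the acupoint groups on other days, so that scan and treatment cannot be told apart in any comparison of Jiaji with IRI. The other acupoint groups were on other scans than Jiaji, so the same holds for their comparison with Jiaji.

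In Jiaji hearts 1082 genes were higher and 232 were lower than in IRI hearts, 8.39% and 1.8% of the genes tested and 10.2% together. The split depended on the scaling of the arrays: quantile normalization called 741 higher and 635 lower (5.75% and 4.92%), and scaling to each array's median called 740 higher and 1629 lower. The median difference over all genes was -0.015 on the log2 scale as scaled here, -0.093 with quantile normalization and -0.23 with median scaling. With both the 75th percentile and the quantile normalization, 930 genes were called in the same direction, 720 of them higher and 210 lower, 7.21%, 5.58% and 1.63% of the genes tested. The Jiaji and IRI arrays did not overlap in 2044 genes, 15.9% of those tested, so lack of overlap alone was not rare. Without IRI replicate 2 the number called fell to 858. The calls lower fell from 232 to 113 without IRI replicate 2, to 133 without IRI replicate 3, to 137 without IRI replicate 4, to 119 without Jiaji replicate 1 and to 121 without Jiaji replicate 3. Direction went with brightness: 463 of the 3224 faintest genes were called higher and 30 lower, while 34 of the 3224 brightest were called higher and 103 lower. Of the 82 called genes named below from this comparison, 39 held the call in every alternative setting run. For the others the settings that ended it are given with the adjusted p in brackets, apart from a fit with the replicate number as a block, which is described with the limits at the end.

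**Figure D1:**
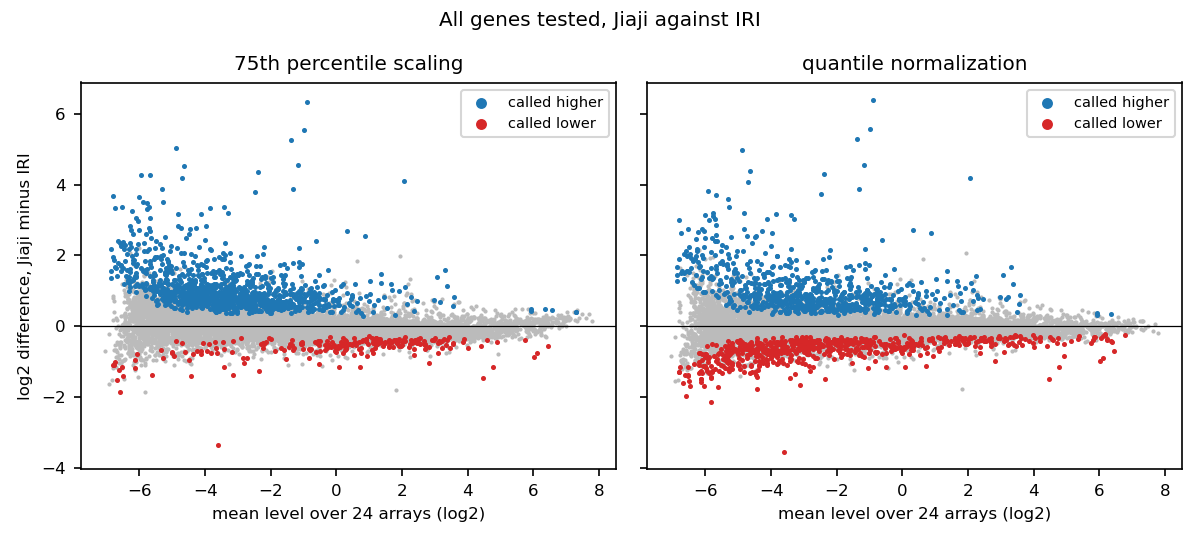
Difference between Jiaji and IRI hearts on the log2 scale (vertical axis) against mean level over all 24 arrays (horizontal axis, log2) for the 12894 genes tested, with 75th percentile scaling on the left and quantile normalization on the right. Blue points were called higher and red points lower, 1082 and 232 on the left against 741 and 635 on the right, and the red points among faint genes appear mainly on the right.

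Several genes of sympathetic transmission were higher in Jiaji hearts. Of 29 genes tested on a list of adrenergic and cholinergic signalling, 6 rose and none fell, 20.7% called against 8.39% called higher among all genes, with a list median of 0.14 against -0.015 over all genes. Quantile normalization called 4 of the 29 higher and 3 lower, with a median of 0.056 against -0.093 over all genes. The 6 were Slc6a2, Th, Npy1r, Slc18a3, Pnmt and Adrb1, the last 2 being named after their values were seen. The promoter of Th, the gene of tyrosine hydroxylase, is shown because Th is the rate-limiting enzyme of catecholamine synthesis and its gene is a known target of cyclic AMP signalling. It is the 250 bases before the gene's start on the minus strand at chr1:207508219-207508468 of GRCr8, from RefSeq, with the letters of the cyclic AMP response element, TGACGTCA, in capitals:

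Th: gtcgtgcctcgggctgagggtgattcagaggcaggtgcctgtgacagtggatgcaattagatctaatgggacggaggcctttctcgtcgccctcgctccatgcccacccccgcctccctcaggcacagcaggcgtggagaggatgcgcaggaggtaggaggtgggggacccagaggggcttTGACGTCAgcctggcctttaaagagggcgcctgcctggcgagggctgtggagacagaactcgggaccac

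The element reads the same on both strands and lies 69 to 62 bases before the start. It occurs in the same window of 1.59% of 33469 RefSeq rat promoters. A match of letters is a description of the window and not a measurement of binding.

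Th levels were 1.45, 1.08, 1.34 and 1.5 in the Jiaji arrays, 0.56, -0.36, -0.094 and 0.55 in the IRI arrays and -0.083, -0.38, -0.45 and -0.33 in the sham arrays. All 4 Jiaji arrays lay above all IRI arrays, and the 2 IRI males lay above the 2 IRI females. The difference between Jiaji and IRI was 1.18 ± 0.17 (SE), adjusted p = 7.58e-05, a 2.26-fold increase, and it was 1.23 with quantile normalization. Slc6a2 encodes the noradrenaline transporter, which returns noradrenaline to the nerve ending, and its levels were -0.74, -0.75, -0.66 and -0.67 in Jiaji against -1.42, -1.69, -1.5 and -1.60 in IRI and -1.49, -1.78, -1.79 and -1.68 in sham hearts. The Jiaji arrays were tightly grouped and separate from both other groups. Slc6a2 was 1.79-fold higher than in IRI (log2 difference 0.84 ± 0.11 (SE), adjusted p = 3.07e-05), and the gene's other probe gave 1.07. Npy1r encodes a receptor of neuropeptide Y, a peptide that sympathetic nerves release together with noradrenaline. Its levels were -2.02, -2.55, -1.99 and -2.01 in Jiaji and -2.96, -3.71, -3.02 and -3.25 in IRI hearts, with Jiaji replicate 2 below the other Jiaji arrays and still above every IRI array. Npy1r differed by 1.09 ± 0.23 (SE), adjusted p = 0.00335. These 3 genes were called in every alternative setting.

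The other called genes of the list were less firmly placed. Pnmt, which turns noradrenaline into adrenaline, had levels of -0.42, -0.64, -0.38 and -0.11 in Jiaji and -1.24, -1.41, -0.96 and -0.68 in IRI hearts, which did not overlap. It differed by 0.69 ± 0.17 (SE), adjusted p = 0.0126, and was not called without IRI replicate 1 (0.0501) or without IRI replicate 2 (0.0615). Adrb1, the main beta-adrenergic receptor of the heart, had levels of -2.88, -3.02, -2.86 and -3.09 in Jiaji, -3.70, -3.51, -3.48 and -3.33 in IRI and -2.95, -2.68, -2.91 and -2.93 in sham hearts. The Jiaji levels overlapped those of sham and not those of IRI. Adrb1 differed by 0.54 ± 0.14 (SE), adjusted p = 0.0139, and was not called with quantile normalization, with median scaling, with the normexp background or in the authors' deposited values (0.0686 to 0.286), nor without IRI replicate 1 (0.0587). Slc18a3, which loads acetylcholine into vesicles, differed by 0.57 ± 0.14 (SE), adjusted p = 0.0126, and was not called with quantile normalization, with median scaling, with the normexp background or in the authors' deposited values (0.07 to 0.133). The remaining members included Dbh, the enzyme between dopamine and noradrenaline, at -0.088, adjusted p = 0.884, and Npy itself at -0.73, adjusted p = 0.536.

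**Figure D2:**
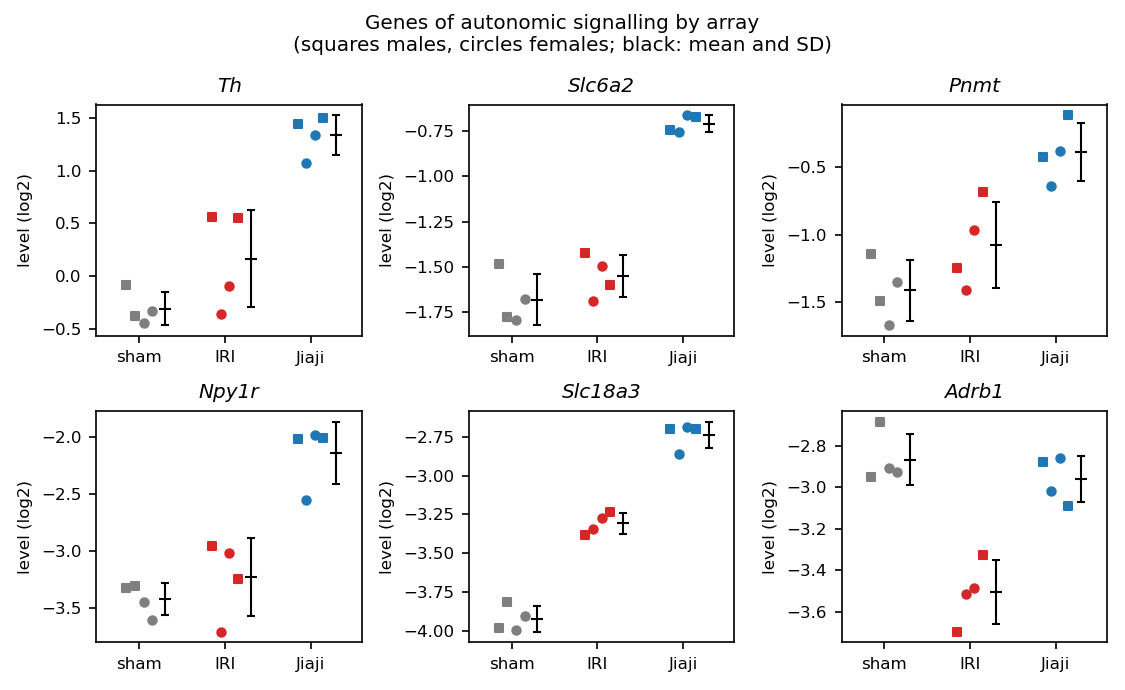
Levels (vertical axis, log2 relative to the array's 75th percentile) of 6 genes of autonomic signalling in the sham, IRI and Jiaji arrays, squares for males and circles for females, with the mean and SD of 4 arrays in black. In each of the 6 genes every Jiaji array lies above every IRI array. The arrays of these groups do not overlap, in either direction, in 15.9% of all genes tested. For Adrb1 the sham arrays lie at the Jiaji level.

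Markers of nerve fibres and Schwann cells gave calls in both directions. Of 17 neuron and Schwann cell markers tested, 3 were higher and 1 lower (23.5% called, against 10.2% of all genes), with a median of 0.068, and 3 were higher and 2 lower with quantile normalization. Their summed signal ran from 12.6 to 15.7 times the 75th percentile in the Jiaji arrays and from 8.59 to 13 in the IRI arrays. Th and Sox10 are members of the list, so this sum contains their own changes. The mean log2 level over the list overlapped, at -2.47 to -2.24 in Jiaji and -2.75 to -2.28 in IRI arrays. The part of nerve and Schwann cell content in the changes of Th and Slc6a2 was not tested. In bulk tissue more cells of a kind and more RNA per cell cannot be told apart. Sox10, the transcription factor of the Schwann cell lineage, had levels of 2.67, 2.46, 2.58 and 2.79 in Jiaji, 1.42, 0.90, 1.56 and 2.16 in IRI and 2.34, 1.98, 1.96 and 2.29 in sham hearts. All Jiaji arrays were above all IRI and sham arrays, and the difference from IRI was 1.11 ± 0.25 (SE), adjusted p = 0.0054. Of the markers of the axon itself, Uchl1 did not pass the test, at 0.40, adjusted p = 0.432. Snap25 was well above background on 3 of 4 IRI arrays and Nefh on none of the Jiaji arrays, so no difference is given for either.

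The receptor of a growth factor for neurons fell. Ntrk2 encodes TrkB, the receptor of brain-derived neurotrophic factor, and its levels were -0.066, -0.27, -0.043 and 0.060 in Jiaji, 0.97, 1.01, 1.07 and 1.28 in IRI and 0.89, 0.47, 0.64 and 0.78 in sham hearts. The Jiaji arrays lay below all arrays of both other groups. The difference from IRI was -1.17 ± 0.20 (SE), adjusted p = 0.000668, a fall to a level 2.24-fold lower, called in every setting. It was the only called gene of 15 neurotrophins and receptors, a list with a median of -0.025, and Bdnf stood at -0.12, adjusted p = 0.868.

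Hormone and second messenger genes gave scattered calls. Of 15 genes of the angiotensin and kinin system 2 were higher and 1 lower (20% called, against 10.2% of all genes), with a median of -0.068. They included Agtr1b, an angiotensin receptor, at 1.47, adjusted p = 0.0411, not called with quantile normalization, with the normexp background or in the authors' deposited values (0.137 to 0.2), nor without any 1 of IRI replicates 1, 2 and 3 or Jiaji replicates 1, 3 and 4 (0.0759 to 0.15), and Enpep, which degrades angiotensin, at -0.49, adjusted p = 0.0198, not called with quantile normalization, in the authors' deposited values, with the percentile over all spots or with the 8 arrays fitted alone (0.0532 to 0.0952), nor without any 1 of IRI replicates 2 and 4 or Jiaji replicate 2 (0.0505 to 0.0716). Of 34 genes of cyclic AMP signalling 2 were higher and 2 lower (11.8% called, near the 10.2% of all genes), with a median of 6.0e-04. Pde4d, a phosphodiesterase that breaks down cyclic AMP, had levels of -0.23, -0.067, -0.21 and 0.088 in Jiaji and -0.74, -1.40, -0.81 and -0.56 in IRI hearts. These did not overlap, and differed by 0.77 ± 0.20 (SE), adjusted p = 0.0139, not called with median scaling (0.0698), with the mean of the gene's probes (0.106) or without IRI replicate 2 (0.071). Pde2a, another phosphodiesterase, moved the opposite way at -0.64, adjusted p = 0.027, and was not called with the 8 arrays fitted alone (0.0577) or without any 1 of IRI replicates 1, 3 and 4 or Jiaji replicates 1 and 2 (0.0503 to 0.103). Pde1c was at 0.75, adjusted p = 0.0331, not called with quantile normalization, with median scaling, with the normexp background or in the authors' deposited values (0.0669 to 0.824), nor without any 1 of IRI replicates 1, 2 and 4 or Jiaji replicates 1, 3 and 4 (0.0605 to 0.0844). Prkar1a, a regulatory subunit of protein kinase A, was at -0.36, adjusted p = 0.0343, not called with quantile normalization, in the authors' deposited values, with the percentile over all spots or with the 8 arrays fitted alone (0.0863 to 0.107), nor without any 1 of IRI replicates 1, 2 and 3 or Jiaji replicates 1 and 3 (0.0743 to 0.108). Of 7 opioid peptide and receptor genes only Oprd1, the delta opioid receptor, was called, with levels of -0.88, -0.73, -0.55 and -0.52 in Jiaji and -1.25, -1.52, -1.20 and -1.0 in IRI hearts. It differed by 0.57 ± 0.14 (SE), adjusted p = 0.013, and was not called with median scaling (0.0807), with the 8 arrays fitted alone (0.0534), without IRI replicate 2 (0.0615) or without Jiaji replicate 3 (0.051).

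Globin genes were lower in Jiaji hearts than in IRI hearts. Of 17 red cell genes tested, 6 fell and none rose (35.3% called, against 1.8% called lower among all genes), with a median of -0.37, and 7 fell with quantile normalization. The 6 were Hbb-bs, Hbe2, Alas2, Hbb-b1, Hba-a1 and Hbb, the last 2 being named after their values were seen. Hbb-bs, Hbb-b1 and Hbb are beta-globin genes of 1 cluster and Hba-a1 is an alpha-globin gene. The promoters of Hbb-bs, Hbb-b1 and Hba-a1 are shown because these genes moved together. Each is the 250 bases before the start on the minus strand of GRCr8, from RefSeq, at chr1:167631631-167631880, chr1:167643521-167643770 and chr10:15842581-15842830. Capitals mark CACCC and CCAAT, searched on both strands, so that GGGTG and ATTGG also count:

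Hbb-bs: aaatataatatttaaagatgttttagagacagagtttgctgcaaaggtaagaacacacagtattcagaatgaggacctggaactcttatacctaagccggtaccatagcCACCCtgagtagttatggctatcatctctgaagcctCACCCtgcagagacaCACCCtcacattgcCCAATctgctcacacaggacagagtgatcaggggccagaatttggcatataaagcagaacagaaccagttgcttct

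Hbb-b1: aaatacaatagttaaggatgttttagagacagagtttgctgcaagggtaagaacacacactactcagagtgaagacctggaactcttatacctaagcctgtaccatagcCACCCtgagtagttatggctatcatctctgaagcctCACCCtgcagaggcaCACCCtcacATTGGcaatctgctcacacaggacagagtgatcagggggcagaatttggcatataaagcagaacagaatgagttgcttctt

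Hba-a1: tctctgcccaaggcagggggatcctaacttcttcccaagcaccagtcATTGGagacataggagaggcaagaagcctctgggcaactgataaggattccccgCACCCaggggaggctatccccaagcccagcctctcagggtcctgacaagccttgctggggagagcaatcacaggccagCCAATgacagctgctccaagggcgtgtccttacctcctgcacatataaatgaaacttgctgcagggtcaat

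The CACCC letters occur 3 times in Hbb-bs and in Hbb-b1 at the same distances from the start, and once in Hba-a1. CACCC is found in 49.2% and CCAAT in 34.0% of 33469 rat promoters of this length, so neither is rare. Read position by position without gaps, the Hbb-bs and Hbb-b1 windows were identical at 182 of 250 bases, or 72.8%. Near-identical transcripts may also share probe signal, and that was not tested.

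Hbb-bs levels were 4.10, 3.38, 2.5 and 3.97 in Jiaji, 5.31, 4.62, 4.64 and 5.26 in IRI and 5.32, 4.81, 3.49 and 4.35 in sham hearts. Every Jiaji array lay below every IRI array, and the sham arrays overlapped both groups. Females lay below males in each of the Jiaji, IRI and sham groups. The difference from IRI was -1.47 ± 0.34 (SE), adjusted p = 0.00748, a level 2.76-fold lower. Hbe2, an epsilon-type globin gene, had levels of 4.65, 3.67, 3.06 and 4.52 against 5.29, 4.91, 4.78 and 5.53 in IRI hearts, again without overlap. It differed by -1.16 ± 0.24 (SE), adjusted p = 0.00321. Both were called in every setting. The other called globin genes were brighter and their groups overlapped. Hbb-b1 differed by -0.88 ± 0.23 (SE), adjusted p = 0.0172, with -1.07 on its other probe, and was not called without the sex term (0.0941), without IRI replicate 2 (0.0605) or without Jiaji replicate 3 (0.0801). Hba-a1 differed by -0.77 ± 0.21 (SE), adjusted p = 0.0203, with -1.60 on its other probe, and was not called without the sex term (0.1) or without any 1 of IRI replicates 2 and 3 or Jiaji replicate 3 (0.0515 to 0.0918). Hbb differed by -0.56 ± 0.17 (SE), adjusted p = 0.0417, with -1.51 on its other probe, and was not called with the percentile over all spots, without the sex term or with the 8 arrays fitted alone (0.0757 to 0.156), nor without any 1 of IRI replicates 2, 3 and 4 or Jiaji replicates 1, 2 and 3 (0.06 to 0.159). Alas2, the first enzyme of heme synthesis in red cell precursors, had levels of -0.068, -1.83, -1.81 and -0.77 in Jiaji and 0.20, -0.54, -0.31 and 0.53 in IRI hearts. Its groups overlapped through Jiaji replicate 1, and it differed by -1.09 ± 0.27 (SE), adjusted p = 0.0119, not called without the sex term (0.0528) or without Jiaji replicate 3 (0.0515). The summed signal of the list was 115 to 260 in Jiaji, 265 to 409 in IRI and 215 to 365 in sham arrays. Genes of the red cell membrane and of its transcription factors did not pass the test, with Slc4a1 at 0.088, adjusted p = 0.928 and Gata1 at -0.16, adjusted p = 0.801. Blood left in the tissue and the amount of blood washed out at sampling are stated in none of the sources used here, and their part was not tested.

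**Figure D3:**
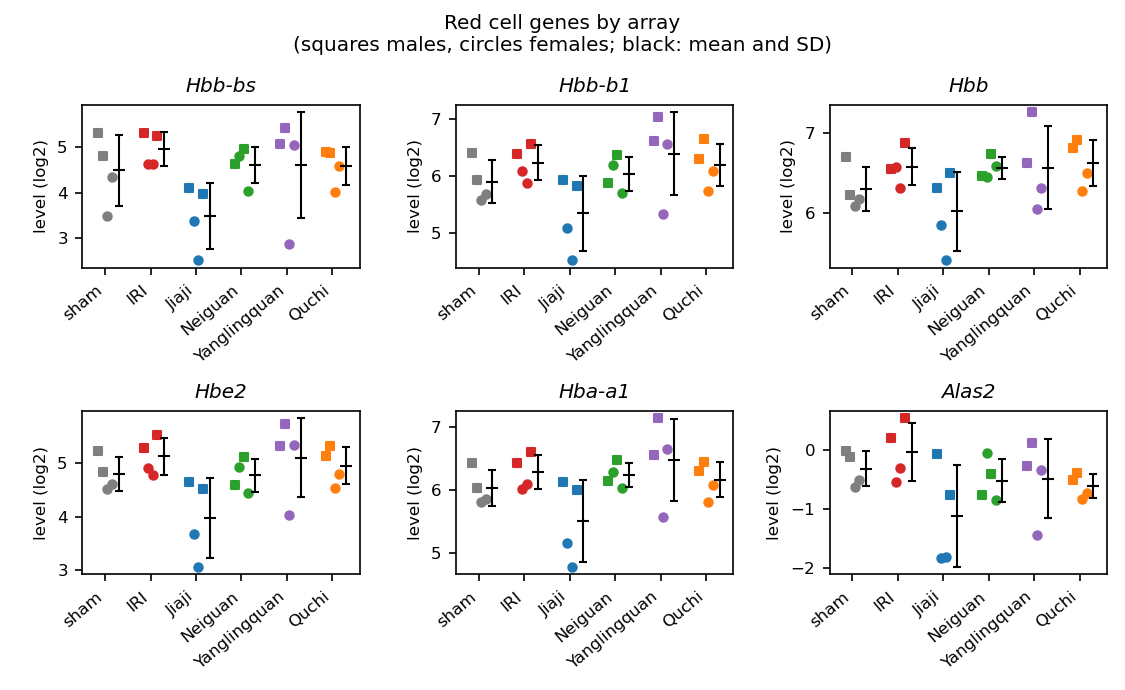
Levels (vertical axis, log2 relative to the array's 75th percentile) of 6 red cell genes in all 24 arrays by group, squares for males and circles for females, with the mean and SD of 4 arrays in black. For Hbb-bs and Hbe2 all 4 Jiaji arrays lie below all 4 IRI arrays. In the Jiaji and sham groups both females lie below both males in all 6 genes, and in the IRI group in all but Hbb.

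The largest falls were in genes of assorted functions. Cd93, a receptor on endothelial cells, had levels of 1.85, 2.06, 1.77 and 2.55 in Jiaji, 2.73, 2.77, 2.74 and 3.21 in IRI and 2.91, 2.89, 2.66 and 2.45 in sham hearts, and differed from IRI by -0.81 ± 0.17 (SE), adjusted p = 0.00334. Jiaji and IRI did not overlap, although IRI replicate 4 stood above the other IRI arrays. Fbn2, a fibrillin of elastic microfibrils, had levels of -3.06, -2.90, -3.45 and -3.02 against -2.11, -2.47, -2.28 and -2.0 and differed by -0.90 ± 0.20 (SE), adjusted p = 0.00473. Both were called in every setting, as were Trim50, a ubiquitin ligase of the stomach, at -0.92, adjusted p = 0.00576, and Nat8l, which makes N-acetylaspartate, at -0.78, adjusted p = 0.0128. Wnt3, a secreted ligand of the Wnt pathway, had levels of 3.02, 3.0, 3.01 and 3.17 against 3.93, 3.6, 3.77 and 3.99 and differed by -0.77 ± 0.20 (SE), adjusted p = 0.0169, not called with the percentile over all spots (0.0513), without IRI replicate 1 (0.0514) or without IRI replicate 4 (0.0501). Ajap1, a protein of adherens junctions, was at -0.96, adjusted p = 0.00798. Map4k4, a kinase upstream of JNK, was at -0.89, adjusted p = 0.000284 with 0.17 on its other probe, and was not called with the mean of the gene's probes (0.0772). Mall was at -0.81, adjusted p = 0.0205, not called with the 8 arrays fitted alone (0.0819) or without any 1 of IRI replicates 2 and 4 or Jiaji replicate 1 (0.0529 to 0.0881). Smim5 was at -0.77, adjusted p = 0.0178, not called with the mean of the gene's probes (0.0992) or without any 1 of IRI replicates 2 and 4 or Jiaji replicate 1 (0.0595 to 0.0686). Tmem178b was at -0.79, adjusted p = 0.0129, not called with the mean of the gene's probes (0.0993) or without IRI replicate 2 (0.0665). Csnk1e, a clock kinase, had 1 IRI value missing and was at -1.15, adjusted p = 0.00903, with -0.70 and 0.31 on its other probes, not called with the mean of the gene's probes (0.463) or without IRI replicate 4 (0.0606). Together with Hbb-bs, Hbe2, Mcpt1 and Ntrk2 these were the 15 largest falls among genes called with both scalings, without overlap between Jiaji and IRI arrays and well above background on all of them. None of 10 endothelial markers and none of 11 fibroblast markers was called, with list medians of -0.14 and -0.26, and Pdgfrb was the only called gene of 11 smooth muscle and pericyte markers at -0.31, adjusted p = 0.028, not called with quantile normalization, in the authors' deposited values, with the percentile over all spots or with the 8 arrays fitted alone (0.0897 to 0.143), nor without any 1 of IRI replicates 1, 2 and 4 or Jiaji replicates 3 and 4 (0.0523 to 0.0886).

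Inflammatory genes gave few calls. Of 29 genes of inflammatory cytokines and their brakes, 3 were higher and none lower (10.3% called, near the 8.39% called higher among all genes), with a median of 0.21, or 0.021 with quantile normalization. Nos2, the inducible nitric oxide synthase, had levels of -0.84, -1.27, -1.36 and -0.84 in Jiaji, -2.14, -2.15, -2.26 and -1.79 in IRI and -2.73, -3.17, -3.05 and -2.69 in sham hearts. The 3 groups lay in that order without overlap of neighbours, and Jiaji was 2.01-fold above IRI (1.01 ± 0.18 (SE), adjusted p = 0.000688). Socs3, which restrains cytokine signalling through STAT3, had levels of -1.81, -2.48, -2.05 and -2.05 against -2.80, -3.24, -2.88 and -2.51. These did not overlap, and differed by 0.76 ± 0.16 (SE), adjusted p = 0.00414. Il10, an anti-inflammatory cytokine, had levels of -2.95, -3.21, -2.99 and -2.33 against -3.24, -3.79, -4.18 and -3.41, with a difference of 0.78 ± 0.19 (SE), adjusted p = 0.0113, not called with quantile normalization, with the normexp background or in the authors' deposited values (0.0686 to 0.0802). Nos2 and Socs3 were called in every setting.

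Cytokines and stress genes that commonly mark cardiac injury were not called between Jiaji and IRI hearts. Cxcl1, a neutrophil chemokine, had levels of 3.07, 1.72, 2.98 and 3.11 in Jiaji, 2.19, 3.42, 2.33 and 3.54 in IRI and 1.25, 0.089, 0.53 and 1.42 in sham hearts. Both ligated groups lay above all sham arrays, and they differed from each other by -0.15, adjusted p = 0.872. Il6 had levels of -0.86, -3.24, -1.40 and -0.51 in Jiaji, -1.81, -1.14, -2.90 and -0.51 in IRI and -3.23, -4.41, -4.25 and -3.01 in sham hearts. The arrays of either ligated group spanned more than 2 log2 units, and the difference was 0.090, adjusted p = 0.951. Nppb, the natriuretic peptide of stretched muscle, was at -0.24, adjusted p = 0.603. Fos, an immediate early gene, was at -0.45, adjusted p = 0.537. Hmox1, the heme-degrading antioxidant enzyme, was at 0.84, adjusted p = 0.122. Il1b stood at -0.57, adjusted p = 0.356 and Tnf at -0.054, adjusted p = 0.953.

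Of 18 NADPH oxidase and nitric oxide synthase genes 3 were higher and none lower (16.7% called, against 8.39% called higher among all genes), with a median of 0.076. Noxa1, the activator subunit of the NADPH oxidase NOX1, had levels of -1.45, -1.76, -1.65 and -1.66 in Jiaji, -2.67, -3.07, -2.72 and -2.66 in IRI and -2.25, -2.32, -2.45 and -2.39 in sham hearts. Jiaji lay above both other groups, and the difference from IRI was 1.15 ± 0.13 (SE), adjusted p = 4.08e-06, called in every setting, as was that of Nos2 above. Nox3 was well above background on only 2 of 4 IRI arrays, so its difference of 1.39, adjusted p = 0.0453 is not a measured fold, and it was not called with quantile normalization, with the normexp background or with no filter on dim probes (0.0513 to 0.932), nor without any 1 of IRI replicates 1, 2, 3 and 4 or Jiaji replicates 1, 2, 3 and 4 (0.0556 to 0.139). Nos3, the endothelial synthase, stood at -0.28, adjusted p = 0.595, and Nox4 at -0.36, adjusted p = 0.403. None of 29 antioxidant genes was called, with a median of 0.0077.

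Leukocyte markers gave single calls. Csf1r, the receptor that macrophages need to survive, had levels of -0.56, -0.79, -0.53 and -0.72 in Jiaji, -1.64, -1.88, -1.58 and -1.47 in IRI and -1.23, -1.26, -1.37 and -1.33 in sham hearts. The 3 groups did not overlap, with IRI lowest and Jiaji highest. Csf1r differed from IRI by 0.99 ± 0.10 (SE), adjusted p = 2.56e-06, and its other probe gave 0.30 and was not called. It was the only called gene of 14 monocyte and macrophage markers, whose median was -0.12 and whose summed signal of 47.1 to 81.4 in Jiaji arrays lay within the 42.9 to 93.9 of the IRI arrays. Cd8b, a chain of the cytotoxic T cell coreceptor, had levels of -1.65, -1.35, -1.39 and -1.19 against -2.21, -2.86, -2.06 and -2.04 and differed by 0.90 ± 0.17 (SE), adjusted p = 0.0017, the only call of 14 lymphocyte markers. Both genes were called in every setting. Csf3r, a receptor of neutrophils, was at 0.63, adjusted p = 0.0327, not called with quantile normalization, with median scaling, with the normexp background, in the authors' deposited values or with the 8 arrays fitted alone (0.0915 to 0.19), nor without any 1 of IRI replicates 1, 3 and 4 or Jiaji replicates 1, 3 and 4 (0.0587 to 0.122), and was the only call of 11 neutrophil markers. Mcpt1, a mast cell protease, fell: its levels were -4.94, -4.62, -5.65 and -4.77 in Jiaji, -2.85, -3.77, -3.71 and -3.99 in IRI and -3.57, -3.29, -4.77 and -4.43 in sham hearts. The Jiaji arrays lay below all IRI arrays and overlapped the sham arrays, and the difference from IRI was -1.41 ± 0.34 (SE), adjusted p = 0.0108, called in every setting. Of 13 mast cell markers it alone was called, 10 had values below 0 and the median was -0.45. Tpsb2 stood at 0.16, adjusted p = 0.518 and Kit at 0.28, adjusted p = 0.319.

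Genes of energy metabolism gave few calls, and each of the calls named here ended in some setting. Of 31 genes of glycolysis and the hypoxia response 1 was higher and 3 lower (12.9% called, near the 10.2% of all genes), with a median of -0.023. Pfkm, the muscle phosphofructokinase, had levels of 5.51, 5.44, 5.33 and 5.40 in Jiaji and 5.68, 5.97, 5.86 and 5.74 in IRI hearts. These did not overlap and differed by -0.39 ± 0.10 (SE), adjusted p = 0.0155, not called with the percentile over all spots (0.0681), with the 8 arrays fitted alone (0.0935), without IRI replicate 2 (0.0698) or without Jiaji replicate 3 (0.0542). Pfkp was at -0.59, adjusted p = 0.0331, not called with the 8 arrays fitted alone (0.0742) or without any 1 of IRI replicates 1 and 2 or Jiaji replicates 1, 3 and 4 (0.0659 to 0.132). Eno1, an enolase, was at -0.49, adjusted p = 0.0223, not called with quantile normalization, in the authors' deposited values, with the percentile over all spots, without the sex term or with the 8 arrays fitted alone (0.0524 to 0.0915), nor without any 1 of IRI replicates 1 and 2 or Jiaji replicates 3 and 4 (0.0553 to 0.094). Car9, a carbonic anhydrase induced by hypoxia, was at 0.48, adjusted p = 0.0104, not called with quantile normalization, with median scaling, in the authors' deposited values or with the 8 arrays fitted alone (0.0625 to 0.101), nor without IRI replicate 2 (0.0523). Of 30 genes of fatty acid oxidation only Acads was called, at -0.46, adjusted p = 0.0319, not called with the percentile over all spots (0.0681), with the 8 arrays fitted alone (0.0625) or without any 1 of IRI replicates 2, 3 and 4 or Jiaji replicates 1 and 3 (0.0527 to 0.122). None of 35 genes of the respiratory chain and ATP synthase was called, and quantile normalization called 4 of them lower.

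Of 16 cardiomyocyte markers 2 were called higher (12.5% called, near the 8.39% called higher among all genes). Their median of 0.19 turned to -0.037 with quantile normalization. Tnni3, cardiac troponin I, was at 0.39, adjusted p = 0.0432, not called with quantile normalization, with median scaling, in the authors' deposited values, without the sex term or with the 8 arrays fitted alone (0.0559 to 0.396), nor without any 1 of IRI replicates 1, 3 and 4 or Jiaji replicates 2, 3 and 4 (0.0562 to 0.131). Myl3, a ventricular myosin light chain, was at 0.40, adjusted p = 0.0487, not called with quantile normalization, with median scaling, in the authors' deposited values, with no filter on dim probes, with the stricter filter on dim probes, without the sex term or with the 8 arrays fitted alone (0.0505 to 0.394), nor without any 1 of IRI replicates 1, 2, 3 and 4 or Jiaji replicates 2, 3 and 4 (0.0566 to 0.138). The summed signal of these markers was 1680 to 1970 in Jiaji and 1490 to 1640 in IRI arrays. Hcn4, the pacemaker channel, was the only call among 36 ion channel and calcium handling genes at 0.76, adjusted p = 0.0499, not called with quantile normalization, with median scaling, with the normexp background, in the authors' deposited values, with no filter on dim probes, with the 8 arrays fitted alone or with the mean of the gene's probes (0.0522 to 0.189), nor without any 1 of IRI replicates 1, 2 and 3 or Jiaji replicates 1, 2, 3 and 4 (0.0526 to 0.187). Clic6, a gene of the chloride intracellular channel family listed as an atrial marker, had levels of -2.06, -2.35, -1.76 and -1.41 in Jiaji, -5.23, -8.66, -3.85 and -3.35 in IRI and -1.39, -1.58, -2.20 and -2.61 in sham hearts. IRI replicate 2 was far below the other IRI arrays, and the Jiaji arrays lay at the sham level. IRI replicate 2 was also the IRI array on which Clic6 was not well above background. It differed by 3.38 ± 0.83 (SE), adjusted p = 0.0117, or by 2.18 without IRI replicate 2, not called with the 8 arrays fitted alone (0.0583).

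Stress, death and clock genes contributed single calls. Bid, which carries the death receptor signal to mitochondria, had levels of -0.96, -1.71, -1.43 and -0.85 in Jiaji, -2.88, -3.62, -3.20 and -3.19 in IRI and -1.54, -1.80, -2.26 and -1.97 in sham hearts. IRI lay below both other groups, and Jiaji was 3.96-fold above IRI (1.99 ± 0.31 (SE), adjusted p = 0.00017). Chac1, a glutathione-degrading enzyme induced by the integrated stress response, had levels of 0.59, 0.29, 0.43 and 0.40 against -0.13, -0.30, -0.26 and 0.084 and differed by 0.58 ± 0.13 (SE), adjusted p = 0.00469. Bid and Chac1 were called in every setting and were the only calls of 29 cell death and of 23 endoplasmic reticulum stress genes. Per3, a period gene of the circadian clock, had levels of 0.80, 0.29, 0.31 and 0.35 against -0.37, -0.78, -0.69 and -0.25 and differed by 0.96 ± 0.15 (SE), adjusted p = 0.000216, but its other probes gave -0.027 and 0.20, and it was not called with the mean of the gene's probes (0.218). Per1 was at 0.50, adjusted p = 0.023, not called with quantile normalization, with median scaling, with the normexp background, in the authors' deposited values or with the 8 arrays fitted alone (0.0504 to 0.43), nor without any 1 of IRI replicates 1 and 2 or Jiaji replicates 1 and 4 (0.0569 to 0.0877). Cdc20, a cell cycle gene, was at -0.54, adjusted p = 0.0314, not called with the percentile over all spots (0.0845) or without any 1 of IRI replicates 1, 3 and 4 or Jiaji replicates 1 and 3 (0.0625 to 0.122), and 19 of 21 cell cycle genes had values below 0, with a median of -0.39.

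**Figure D4:**
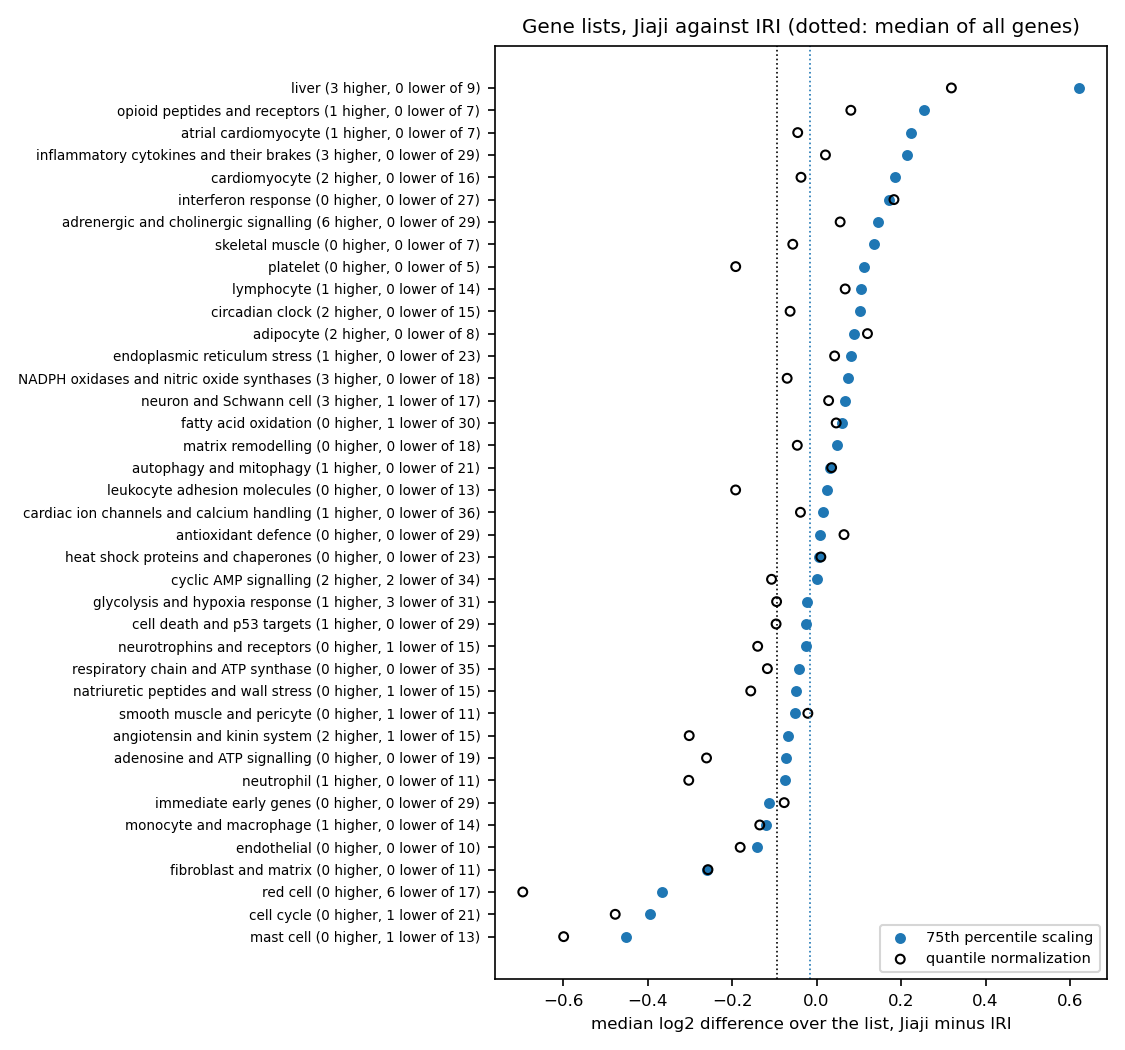
Median log2 difference between Jiaji and IRI hearts (horizontal axis) over each of 39 gene lists (vertical axis), with the number called higher and lower of the genes tested. Filled circles show 75th percentile scaling and open circles quantile normalization, and dotted lines mark the medians of all genes, -0.015 and -0.093. The red cell, cell cycle and mast cell lists lie lowest, at -0.37, -0.39 and -0.45, and the liver list highest, at 0.62.

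Several lists gave no call at all by limma with 75th percentile scaling: interferon response (27 genes), immediate early genes (29), heat shock proteins and chaperones (23), leukocyte adhesion molecules (13), adenosine and ATP signalling (19), matrix remodelling (18), platelet (5) and skeletal muscle markers (7). Quantile normalization called 1 heat shock gene higher, and 1 immediate early gene, 2 adenosine and ATP signalling genes and 1 matrix gene lower.

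The largest increases were far larger and were mostly shared with the other acupoint groups. Krt80, a keratin of epithelia, had levels of 1.75, 1.77, 1.43 and 1.13 in Jiaji, -4.95, -4.37, -4.58 and -5.38 in IRI and -6.34, -5.48, -6.10 and -6.31 in sham hearts, a difference from IRI of 6.34 ± 0.26 (SE), adjusted p = 2.04e-12, or 81-fold. On the 12 Neiguan, Yanglingquan and Quchi arrays Krt80 ranged from 0.48 to 1.94, median 1.34. Mcc, a gene known from colorectal cancer, differed by 5.54 ± 0.27 (SE), adjusted p = 2.67e-11, Evc2, a protein of the primary cilium, by 5.26 ± 0.28 (SE), adjusted p = 5.04e-11, and Defb43, a beta-defensin, by 4.55 ± 0.23 (SE), adjusted p = 3.68e-11. Pinx1, an inhibitor of telomerase, had levels of 3.6, 3.69, 3.42 and 3.12 against -0.51, -0.32, -0.93 and -0.79 and differed by 4.09 ± 0.22 (SE), adjusted p = 5.04e-11. In these 5 genes no Jiaji array came within 3 log2 units of an IRI array. Opalin (4.36), Dact2 (3.89), Svs3a (3.80), Cd80 (3.35), Slc26a2 (3.18), Nkx2-3 (2.83), Apol7b (2.68), Cd300lb (2.49), Cntn4 (2.42) and Car6 (2.36) completed the 15 largest increases among genes that met the same conditions as the falls above. All 15 were called in every setting. Apol7b and Car6 each had another probe, which gave 0.040 and 0.0030 and was not called.

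All 16 arrays of the 4 acupoint groups lay above all 8 IRI and sham arrays in 37 genes, 0.287% of those tested, and 12 of the 15 genes just named were among these. The exceptions were Cd300lb, Cntn4 and Svs3a. In Cd300lb, an immune receptor, the Jiaji levels were -2.89, -3.94, -3.29 and -3.74 and the IRI levels -6.09, -5.82, -5.90 and -6.0, while the 12 other acupoint arrays ranged from -5.72 to -3.88, median -4.29 and overlapped the sham levels of -4.57, -4.55, -4.66 and -4.78. None of the 15 largest falls was among the 5 genes, 0.0388% of those tested, in which all acupoint arrays lay below all IRI and sham arrays. Since the groups with high levels were scanned on other days than IRI and sham, treatment and scan cannot be told apart for these genes.

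**Figure D5:**
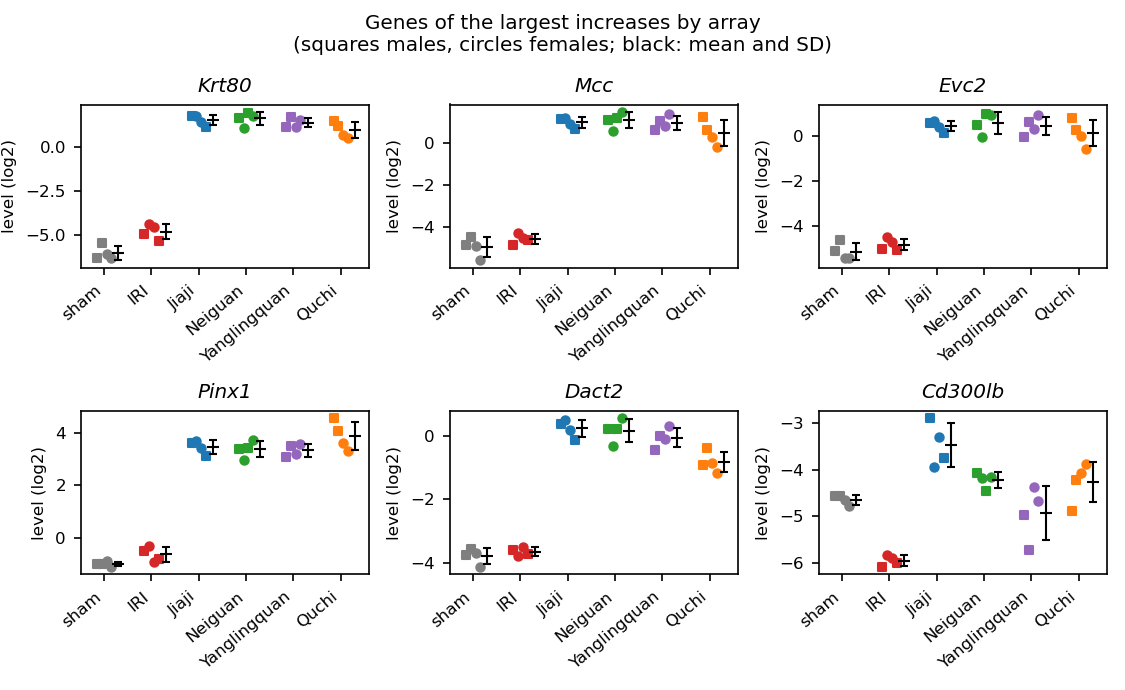
Levels (vertical axis, log2 relative to the array's 75th percentile) of 6 of the genes with the largest increases in all 24 arrays by group, squares for males and circles for females, with the mean and SD of 4 arrays in black. Krt80, Mcc, Evc2, Pinx1 and Dact2 are high in all 4 acupoint groups and low in sham and IRI, while in Cd300lb the other acupoint arrays overlap the sham arrays.

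Many of the genes called higher were faint and belong to families studied mainly in other tissues. Of 572 chemosensory receptor genes tested, 182 were higher (31.8%, against 8.39% of all genes) and 2 lower, with a median of 0.60 at a median level of -4.48, and quantile normalization called 128 higher and 9 lower. Of 9 liver markers 3 were higher (33.3% called, against 8.39% called higher among all genes), with a median of 0.62. Serpina1, alpha-1-antitrypsin, was at 1.30, adjusted p = 0.00622 and was called in every setting. Apoa2 was at 0.85, adjusted p = 0.0103, not called with the normexp background (0.93) or without IRI replicate 1 (0.0519). The summed liver signal was 8.24 to 13.5 in Jiaji and 13.7 to 16.9 in IRI arrays, and the abundant liver gene Alb was well above background on none of the Jiaji arrays and 1 of the IRI arrays. Of 8 adipocyte markers 2 were higher (25% called, against 8.39% called higher among all genes), and quantile normalization called 1 higher. The 2 were Lep and Ucp1, which is described next. Lep, leptin, was well above background on all 4 Jiaji arrays and 1 IRI array, so that its difference of 1.25, adjusted p = 0.0415 is not a measured fold, and it was not called with quantile normalization, with the normexp background or with no filter on dim probes (0.05 to 0.946), nor without any 1 of IRI replicates 1, 2, 3 and 4 or Jiaji replicates 1, 2 and 4 (0.0532 to 0.116).

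Some genes were above background in every array of a group and in none of the other, so only a bound on the fold can be given. The bound compares the mean of the bright group with a floor for the dim group, taken per dim array from the faintest signal well above background or from the probe itself if that was brighter. Cyp4a2, a fatty acid hydroxylase, was at least 16-fold higher in Jiaji than in IRI hearts (adjusted p = 2.6e-08) and Pou4f2, a transcription factor of sensory neurons, at least 5.79-fold (adjusted p = 1.15e-07). On the 12 other acupoint arrays Cyp4a2 ranged from -4.56 to -2.29, above all IRI and sham arrays. Treatment and scan cannot be told apart for Cyp4a2. For Pou4f2 all IRI arrays lay below all sham arrays, with means of -8.41 in IRI and -5.88 in sham hearts. The 12 other acupoint arrays ranged from -6.64 to -4.49 for Pou4f2, also above all IRI arrays. Ucp1, the uncoupling protein of brown fat, was at least 2.31-fold higher (adjusted p = 0.00107), not called with the normexp background (0.92) or in the authors' deposited values (0.186). Fgb, a fibrinogen chain, was at least 2.28-fold higher (adjusted p = 0.0185), not called with quantile normalization, with the normexp background or in the authors' deposited values (0.0744 to 0.968), nor without any 1 of IRI replicates 2 and 4 or Jiaji replicate 3 (0.0508 to 0.0596). In the other direction Hmga2, a chromatin protein, was at least 1.64-fold lower (adjusted p = 0.00955), Rgs9, a regulator of G protein signalling, at least 1.32-fold (adjusted p = 0.00563) and Rassf7 at least 1.5-fold (adjusted p = 0.0175), the last not called without IRI replicate 3 (0.0721) or without Jiaji replicate 3 (0.0691). Nppc, the C-type natriuretic peptide, was at least 1.27-fold lower (adjusted p = 0.0213), not called without any 1 of IRI replicates 3 and 4 or Jiaji replicates 2 and 4 (0.0506 to 0.0736).

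The Jiaji arrays were also set against the 12 arrays of the other 3 acupoint groups, which had the same ligation. This comparison shares the Jiaji arrays with the one above. None of the 12 arrays shared the scan of the Jiaji arrays, so acupoint and scan cannot be told apart here either. It called 2183 genes, 1490 higher and 693 lower (16.9%, 11.6% and 5.37% of those tested). Quantile normalization called 822, with 552 called the same way by both (4.28%), and without Jiaji replicate 1 the number fell to 513; it was 1185 without Jiaji replicate 3 and 1377 without Jiaji replicate 4. Of the genes described above, Th was higher in Jiaji than the mean of the other 3 acupoint groups by 0.62 ± 0.14 (SE), adjusted p = 0.00763. For Th the Neiguan mean of 1.44 lay above the Jiaji mean of 1.34, with Yanglingquan at 0.78 and Quchi at -0.071. Slc6a2 was higher in Jiaji than the mean of the other groups by 0.50 ± 0.090 (SE), adjusted p = 0.00336, Csf1r by 0.41 ± 0.085 (SE), adjusted p = 0.00616 and Bid by 1.46 ± 0.25 (SE), adjusted p = 0.00279. Csf1r was not called in this comparison with median scaling (0.0653). Globins were lower, Hbb-bs by -1.11 ± 0.28 (SE), adjusted p = 0.0138, Hbe2 by -0.97 ± 0.20 (SE), adjusted p = 0.00581 and Hbb-b1 by -0.86 ± 0.19 (SE), adjusted p = 0.00774; Hbb-bs was not called without Jiaji replicate 3 (0.0621). Ntrk2 (0.33, adjusted p = 0.164), Mcpt1 (-0.36, adjusted p = 0.374) and Cd93 (-0.15, adjusted p = 0.447) did not pass this test. For Ntrk2 the other groups were split, with means of -0.11 in Neiguan, -2.10 in Yanglingquan and 0.98 in Quchi against -0.080 in Jiaji. The 6 largest increases with no overlap between Jiaji and the 12 arrays were Cacng2 (1.30, adjusted p = 0.00114), Kcns2 (1.18, adjusted p = 0.00902), Hist1h2af (1.12, adjusted p = 0.0103), Il25 (1.05, adjusted p = 0.00763), Clca4l (1.03, adjusted p = 0.00613) and Cd46 (1.03, adjusted p = 0.00222). Cacng2, a subunit that accompanies glutamate receptors and calcium channels, had Jiaji levels of -0.66, -1.88, -1.93 and -2.0, and the 12 other acupoint arrays ranged from -3.64 to -2.07, median -2.98. Cd46, a complement regulator, had Jiaji levels of -2.22, -1.73, -1.97 and -2.34, against -3.75 to -2.38, median -3.07. In both genes the Jiaji arrays also lay above all IRI arrays. The 6 largest falls were Tut1 (-0.63, adjusted p = 0.0238), Lsr (-0.58, adjusted p = 0.0386), Actr1b (-0.56, adjusted p = 0.00617), Gorasp1 (-0.55, adjusted p = 0.00336), Fat1 (-0.54, adjusted p = 0.00674) and Miga2 (-0.52, adjusted p = 0.0109). Among these falls only Fat1 was also called between Jiaji and IRI, and among the 6 increases all but Il25 were. Hist1h2af was not called with the mean of the gene's probes (0.131) or without Jiaji replicate 1 (0.0536), and Il25 was not called with the normexp background (0.109). Tut1 was not called in the authors' deposited values (0.052), without Jiaji replicate 1 (0.123) or without Jiaji replicate 4 (0.0547). Lsr was not called with the percentile over all spots (0.0714), with the mean of the gene's probes (0.238) or without any 1 of Jiaji replicates 1, 2, 3 and 4 or Neiguan replicates 1 and 2 or Yanglingquan replicate 4 or Quchi replicate 3 (0.0506 to 0.129).

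The difference between Jiaji and IRI was compared between females and males, with 2 arrays of each sex in each group. By limma no gene was called and the smallest adjusted p was 1. Of the 12894 genes 324 had an unadjusted p under 0.05, a smaller share than that threshold allows by chance. Hbb-bs was lower in Jiaji hearts of both sexes, with a log2 difference of -1.24 in males and -1.69 in females.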

How the data were processed

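The 24 arrays were 1-colour Agilent arrays. The authors deposited a scanner table per array, whose processed signal is an intensity with its background already subtracted and whose flags were set by Feature Extraction 11.0.1.1, per the file headers (10.7.3.1 in the submitters' processing notes). The authors' deposited log2 table, used as an alternative, had a median of 7.21 in every column and correlated with the scanner signals at 0.996 or more.

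Control spots (1377 per array) and 8733 outlier spots in all were left out, and 0 were saturated. Spots of 1 probe were averaged and each array's log2 signal was set relative to its 75th percentile over 30367 probes, of which 18005 (59.3%) were named through RefSeq accessions. A probe had to be well above background on every array of some group, and the brightest probe stood for its gene, leaving 12894 genes, of which 231 had a missing value. limma 3.58.1 in R 4.3.3 fitted group and sex over all 24 arrays (17 residual degrees of freedom) with Benjamini-Hochberg adjustment over all 12894 genes, after the steps were tested on simulated data.

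The members and the 39 gene lists were chosen with earlier results of these data known. Named genes were the 15 largest increases and 15 largest falls called with both scalings, without overlap and well above background on all 8 arrays; up to 4 called genes of smallest p per list; up to 3 per direction as bounds; 6 per direction against the other acupoints; and Nppb, Il6, Cxcl1, Fos, Hmox1 and Th whatever their result. Pnmt, Adrb1, Dbh, Hba-a1 and Hbb were added after their values were seen. Some genes that meet these rules are not reported here. Symbols of LOC or RGD with digits and chemosensory receptors were counted and not named. Uncalled list members are given as examples.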

Additional observations from a re-analysis of the deposited data

Results flagged for a closer look

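A single array stood far from the other 3 of its group in 13 of 200 checks of the named genes, where chance gives about 1 in 20. In the Jiaji group replicate 2 was low for Npy1r (-2.55), Slc18a3 (-2.86) and Cxcl1 (1.72), replicate 4 was high for Ajap1 (-4.53) and Wnt3 (3.17), and replicate 1 was high for Per3 (0.80) and Cacng2 (-0.66). In the IRI group replicate 1 was low for Enpep (1.82) and high for Prkar1a (4.21) and Dbh (-0.43), replicate 2 was low for Noxa1 (-3.07), replicate 3 was high for Rassf7 (-5.07) and replicate 4 was high for Cd93 (3.21).

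Of the 82 called genes named from the comparison of Jiaji with IRI, 19 also differed between Jiaji and the mean of the other 3 acupoint groups. The test was limma with both scalings, which called 4.28% of all genes tested the same way. The genes were picked with the same Jiaji arrays that enter this test, so the 2 comparisons are not independent. Acupoint and scan cannot be told apart in it. Higher in Jiaji than that mean were Lep by 1.60, Bid by 1.46, Ucp1 by 1.35, Cd300lb by 1.01, Th by 0.62, Cd8b by 0.61, Slc6a2 by 0.50, Chac1 by 0.49, Oprd1 by 0.48, Csf1r by 0.41 and Per3 by 0.40 on the log2 scale. For Th and Per3 the Neiguan means, 1.44 and 0.64, were above the Jiaji means of 1.34 and 0.44. Lower in Jiaji were Hbb-bs (-1.11), Hbe2 (-0.97), Hbb-b1 (-0.86), Eno1 (-0.64), Pfkp (-0.61), Tmem178b (-0.54), Nat8l (-0.48) and Acads (-0.47). Lep, Ucp1 and Cd300lb were not well above background on all 16 of these arrays, so their differences are not measured folds. The summed red cell signal, which contains these globins, was 115 to 260 in Jiaji arrays and 181 to 534 over the 12 arrays of the other acupoint groups. The part of red cell content in these differences was not tested.

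Probes with no gene name stood outside the comparisons. Of 9929 such probes that passed the filter, 1468 were called between Jiaji and IRI, 1320 of them higher and 148 lower, 14.8% against 10.5% of the named probes.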

How the results depend on the processing

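Calls lower moved most with the settings. Against 1314 called, 1082 higher and 232 lower between Jiaji and IRI, the calls lower were 635 with quantile normalization, 630 in the authors' deposited values, 1629 with median scaling (2369 called in all), 421 with normexp background (523 higher), 100 with the percentile over all spots (an alternative chosen after seeing the data), 94 with the 8 arrays alone and 426 with every probe tested (3067 called, 2641 higher). Leaving out 1 array at a time gave 858 to 1244 called, 745 to 1013 higher and 113 to 232 lower. Against 2183 called between Jiaji and the other acupoints, the count was 822 with quantile normalization, 4044 with median scaling, 938 with normexp, 763 in the authors' values, 1454 with the 16 arrays alone, 4609 with every probe and 513 to 2667 without 1 array. The sex comparison gave 0 to 2 calls without 1 array. The replicate numbers, shared by the groups in the labels, were used as a block in 1 fit: same-numbered Jiaji and IRI arrays correlated at -0.04, 0.28, 0.16 and 0.07, so that only the number is shared. The block fit called 1159 genes, 102 of them lower, with 880 called in both fits, and 912 between Jiaji and the other acupoints. With the block 25 of the 82 called genes named between Jiaji and IRI were not called, Ajap1 (adjusted p = 0.0717 by limma) in that fit alone, and against the other acupoints Hbb-bs (0.053), Hbb-b1 (0.0563) and Tut1 (0.0526) were not.

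Direction turned in uncalled genes and, with normexp, in 3 called ones: Lep (-0.021), Pde1c (-0.061) and Ucp1 (-0.029). Cxcl1 turned to 0.12, 0.0075 and 0.12 without IRI replicate 2, IRI replicate 4 and Jiaji replicate 2, over a range of -0.47 to 0.12 without single arrays. Dbh turned to 0.070 without IRI replicate 1 and 0.067 without Jiaji replicate 1. Il6, which reached 0.52 without Jiaji replicate 2, turned to -0.0053 with quantile normalization, -0.12 with median scaling, -0.0025 in the authors' values, and -0.17, -0.19, -0.13 and -0.079 without IRI replicates 1 and 3 and Jiaji replicates 3 and 4. The causes were not tested. All settings that compare Jiaji with IRI set 1 scan against another. Those that compare Jiaji with the other acupoints likewise set the Jiaji scan against other scans.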
